A study of Mus musculus with 8 samples.

Results

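The mRNAs described here encode proteins of DNA replication and of the cell division cycle, and the measurements are how many of their molecules were read and how long their poly(A) tails were. The set held 41 genes of 13120 with mRNA reads, chosen by name: the MCM2-7 helicase (6 genes), the replication fork (9), nucleotide supply (4), cyclins, kinases and Cks proteins (12) and mitosis (10). All 41 had reads, which came to 15186 of 1926118 mRNA reads on 102 transcripts. Ccnd1 (18 reads) and Ccnd2 (24 reads) fell short of the 30 reads asked for a gene's own tail distribution, which left 39 genes.

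The cells were P19, a mouse embryonal carcinoma line of wild-type genotype that was kept undifferentiated in all groups. They received MHY1485 (MHY), a small molecule used to activate the mTOR pathway, at 10 µM, or the same amount of its solvent DMSO. Exposure lasted 24 h or 48 h in medium with serum, with the compound renewed every 24 h. Each of the 4 groups (DMSO 24 h, MHY 24 h, DMSO 48 h, MHY 48 h) had 2 libraries, which the study's methods call biological replicates. Poly(A) RNA was sequenced directly in nanopores from its 3′ end, so that each read stands for a single RNA molecule with its own tail estimate. Libraries are named by their numbers in the deposited table, which are 21 and 23 at 24 h and 24 and 25 at 48 h for both treatments. Every sequencing run held both treatments and no run held both times, so that time and run cannot be told apart.

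Before a cell divides, MCM2-7 is loaded on DNA as an inactive helicase, and kinases then switch it on at the start of S phase together with the GINS complex. PCNA, a ring that slides along DNA, holds polymerases and the enzymes that process and join new strands. Cyclins bind and activate cyclin-dependent kinases, and the anaphase-promoting complex with Cdc20 later marks cyclin B and other proteins for destruction so that chromosomes can separate. Embryonal carcinoma cells divide rapidly, and mTOR signalling couples nutrients and growth factors to protein synthesis and growth. The poly(A) tail is added after cleavage downstream of a hexamer, most often AAUAAA, and is shortened while the mRNA is in the cytoplasm.

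The 8 libraries held 178369 to 316546 mRNA reads each, of which 1434 to 2404 fell on the set. Mapping quality reached 10 for 87.1% of the set's reads and 71.5% of all mRNA reads, but for only 3.94% of Lig1 reads, 10.4% of Fen1 reads, 28.5% of Mcm5 reads, 42.2% of Ccnd3 reads, 47.9% of Aurka reads and 58.2% of Prim1 reads, whose values may mix near-identical sequences. Whether these sequences belong to other genes or to transcripts of the same gene was not tested. With mapping quality of at least 10 Prim1 had too few reads for the test of tail length. All 8 markers of P19 cells had reads, together 331 to 381 per 100000 in each library, and Pou5f1 gave 5098 of their 6894 reads. Of 6 neuronal markers, 5 had reads and Dcx was at 0. They were at 21.5 to 40.4 per 100000 together, with Stmn2 giving 455 of 566 reads, and at 48 h at 32.8 and 28.7 in DMSO and 24.7 and 21.5 in MHY, without overlap. Their part in the differences between treatments was not tested. Markers of endoderm, mesoderm and fibroblasts were at 1.68 to 24.3 per 100000 (7 of 9, Sox17 and Afp at 0), of which the mesoderm gene T gave 166 of 186 reads and 73 in a single library, with means of 5.09 in DMSO and 2.40 in MHY at 24 h and of 16.4 and 12.1 at 48 h. At 24 h both MHY libraries were the lower. The part of this list in the differences between treatments or times was not tested. In RNA from whole cultures, fewer cells in a phase of the cycle and less RNA per cell cannot be told apart.

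The 3′ ends of the molecules are shown first, because the tail starts there and because some members carried tails of different length at different ends. Read ends were placed on the mouse assembly mm10, and an end site was a window of 51 nt that held at least 10 reads and at least 10% of the gene's reads. Each sequence below is the last 30 bases before the site, on the strand of the transcript, written as DNA from 5′ to 3′ with the hexamer AATAAA or ATTAAA in capitals. Dut ended mainly at chr2:125257703-125257732 (+ strand, 711 reads, 92.0% of its reads) and Pcna at chr2:132249286-132249315 (− strand, 1017 reads, 88.2%). Ccnb1 used 3 sites on the − strand of chromosome 13, at chr13:100779567-100779596, chr13:100779192-100779221 and chr13:100778739-100778768. Ccna2 used sites at chr3:36565978-36566007 and chr3:36564865-36564894 on the − strand. Rrm2 used sites at chr12:24713265-24713294 and chr12:24714060-24714089 on the + strand. All of these sites lie after the coding sequence, and the 30 printed bases of each lie within a single exon.
Dut main site: tttaatccAATAAAgttgtcttttagcaga
Pcna main site: tttaAATAAAgttaacaatttgaaaagtca
Ccnb1 site 1 (upstream): cttcAATAAAggttgtgacttctcatttta
Ccnb1 site 2: ttcaaaATTAAAggtgtgttttaaaaagaa
Ccnb1 site 3 (downstream): gttgAATAAAatttattggtggaaagcttt
Ccna2 site 1 (upstream): atattgagAATAAActgatttggaaatctt
Ccna2 site 2 (downstream): tgtaAATAAAgcatgcaaattaacccttta
Rrm2 site 1 (upstream): tccccttgccATTAAAagaaaccagcaaaa
Rrm2 site 2 (downstream): acttaaaattAATAAActcttgaattaaca

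Among the 37 members with at least 100 reads, 11 (29.7%) had more than 1 end site, against 32.6% of 2527 genes. The main site of a gene was the one with the most reads. In the last 40 nt before it, on the transcript strand, AATAAA was found in 24 of these 37 members (64.9%, against 72.6% of 2514 genes in which these bases could be searched). ATTAAA without AATAAA was found in 3 (8.11%, against 14.9%), and neither hexamer in 10 (27.0%, against 12.5%). The letters TTTTAT, which can overlap a hexamer, were found in the last 100 nt of 9 members (24.3%, against 13.4%). The main site lay within 50 nt of the annotated end of the transcript that held most of its reads for 23 of 39 members and more than 500 nt before it for 11. Dut was among the latter, with 876 nt of annotated transcript beyond its main site, as were Cdk4 (635 nt) and Cdk1 (3158 nt). Reads were aligned to transcripts, so that an end past the annotated one could not be seen.

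As a set, the 41 mRNAs took 0.730% to 0.857% of the mRNA reads. Scaled in this way by total reads, MHY did not move the share beyond the spread between replicates. At 24 h the share was 0.811% and 0.857% in DMSO and 0.820% and 0.804% in MHY. At 48 h it was 0.795% and 0.730% in DMSO and 0.772% and 0.738% in MHY. The groups overlapped at both times, with log2 ratios of MHY to DMSO of −0.04 and −0.01. As each library was left out these ran from −0.08 to 0.001 and from −0.07 to 0.05. On the same scale the median change over all genes was 0.02 at 24 h and 0.11 at 48 h. With the size factors used below for single genes, the median change over members was −0.04 and −0.09. The set's total was not computed with those factors, so that the overlap holds for total reads only. At 24 h the reads of the set had median tails of 106.1 and 114.2 nt in DMSO and of 107.0 and 108.3 nt in MHY. At 48 h it was 107.0 and 106.6 nt in DMSO and 97.8 and 108.1 nt in MHY. MHY replicate 24 thus held the shortest tails of the 8 libraries. The difference at 48 h was −3.87 nt with it and 1.30 nt without it.

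**Figure D1:**
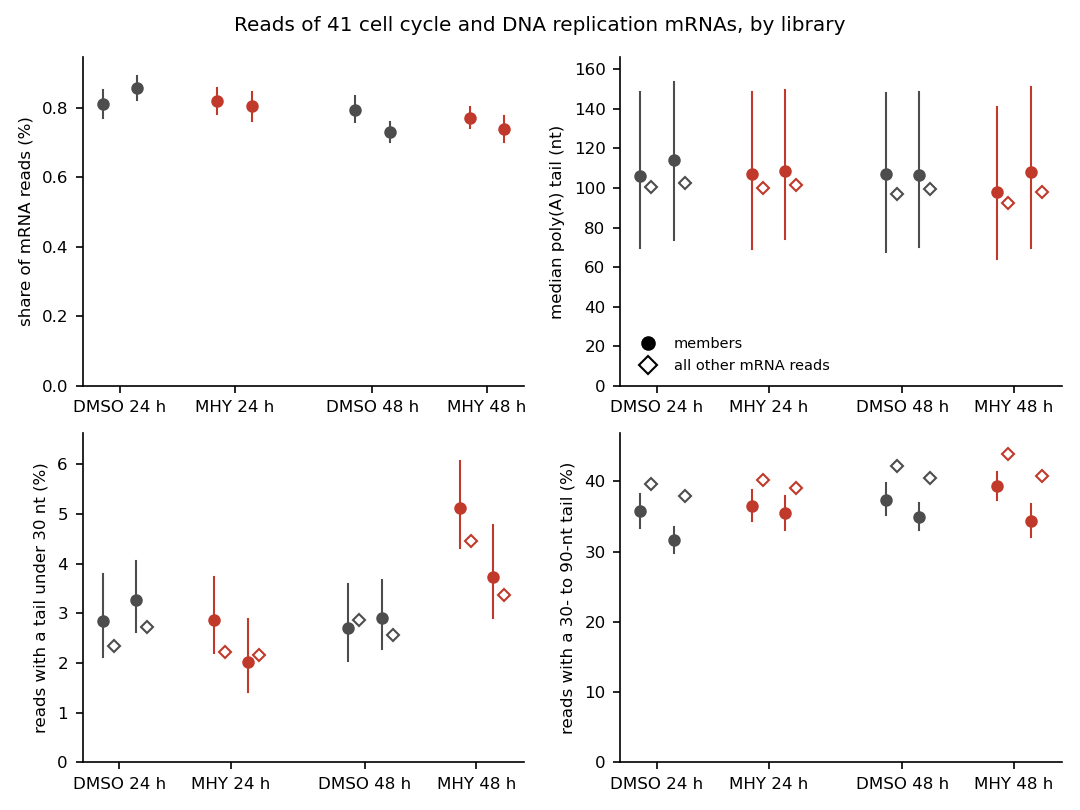
The 41 mRNAs as a set in each of the 8 libraries (grey, DMSO; red, MHY), by share of mRNA reads in percent, tail length in nt and shares of reads by tail class in percent. Dots are the set, bars are Wilson 95% intervals (for tail length the interquartile range of reads), and open diamonds are all other mRNA reads; the set's median tail lies above that of the other mRNA reads in all 8 libraries.

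Among the set's measures, as scaled above, only the share of tails under 30 nt stood apart between treatments, and only at 48 h. It was 2.71% and 2.90% in DMSO against 5.12% and 3.73% in MHY at 48 h, or 2.80% ± 0.13 against 4.43% ± 0.98 (SD, n = 2), and the groups did not overlap. The difference of 1.62 percentage points was 0.931 to 2.31 as each library was left out and 0.347 with the bound at 20 nt. All other mRNA reads moved the same way, from 2.72% ± 0.21 to 3.92% ± 0.77. At 24 h the set's share was 3.05% ± 0.30 in DMSO and 2.45% ± 0.60 in MHY, with overlapping libraries. With 2 libraries against 2, an exact two-sided permutation test cannot give a p below 0.333, and no test was made of the set.

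Tails of 30 to 90 nt made up 31.7% to 39.3% of the set's reads across libraries. Their share was 33.7% ± 2.89 in DMSO and 36.0% ± 0.74 in MHY at 24 h, and 36.2% ± 1.73 and 36.8% ± 3.49 at 48 h (SD, n = 2). The groups overlapped at both times, and the differences ran from 0.209 to 4.30 and from −1.81 to 3.14 percentage points as each library was left out.

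Read for read, the set carried longer tails than the rest of the mRNA. The median of its reads exceeded that of the other mRNA reads by 5.42 to 11.74 nt, in 8 of 8 libraries, the others being at 92.3 to 102.4 nt. Gene by gene, the median over the 39 members was 106.3 nt, against 104.9 nt over 5842 genes with at least 30 reads, and 22 of the 39 lay above that value. In DMSO libraries alone, the members' median was 108.9 nt against 103.8 nt, and 28 of 39 lay above the latter. For comparison, 76 ribosomal protein genes had a median of 93.1 nt.

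By role, mitotic mRNAs had the longest median tail (112.3 nt over 10 members, 95.7 to 123.7 nt). Cyclins, kinases and Cks proteins followed at 109.8 nt (90.4 to 124.0 nt), then MCM2-7 at 106.7 nt (98.3 to 127.6 nt) and nucleotide supply at 104.5 nt (97.8 to 119.8 nt). Members at the replication fork had the shortest, at 102.0 nt (80.3 to 116.6 nt). The ranges of the 5 roles overlapped, and the members within a role spread more widely than the roles' medians.

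Single members spanned 80.3 to 127.6 nt. The shortest tails were those of Prim1, the catalytic subunit of the primase that starts each new DNA strand (80.3 nt, 165 reads). Next came Gins2, a subunit of GINS (83.0 nt, 211 reads), and Rfc4, a subunit of the clamp loader that places PCNA on DNA (85.9 nt, 207 reads). These stood at percentiles 2.23, 3.61 and 6.04 of all genes. The longest were those of Mcm4, a helicase subunit (127.6 nt, 193 reads), Cdk2, a kinase of S phase (124.0 nt, 68 reads), and Top2a, which untangles DNA before division (123.7 nt, 372 reads), at percentiles 91.2, 87.5 and 87.2. In DMSO libraries alone the shortest were again Prim1, Gins2 and Rfc4, at percentiles 11.0, 12.2 and 18.8. The longest there were Top2a, Mcm4 and Rpa2, at 129.3, 127.5 and 125.3 nt, while Cdk2 had 108.4 nt on 34 reads. Tails over 90 nt made up 46.1% of Prim1 reads and 77.2% of Mcm4 reads. Tails under 30 nt made up 8.21% of Rfc4 reads and 6.16% of Gins2 reads, with a median over members of 3.13% against 2.91% over genes. No read of Lig1 or Tyms had a tail under 30 nt.

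**Figure D2:**
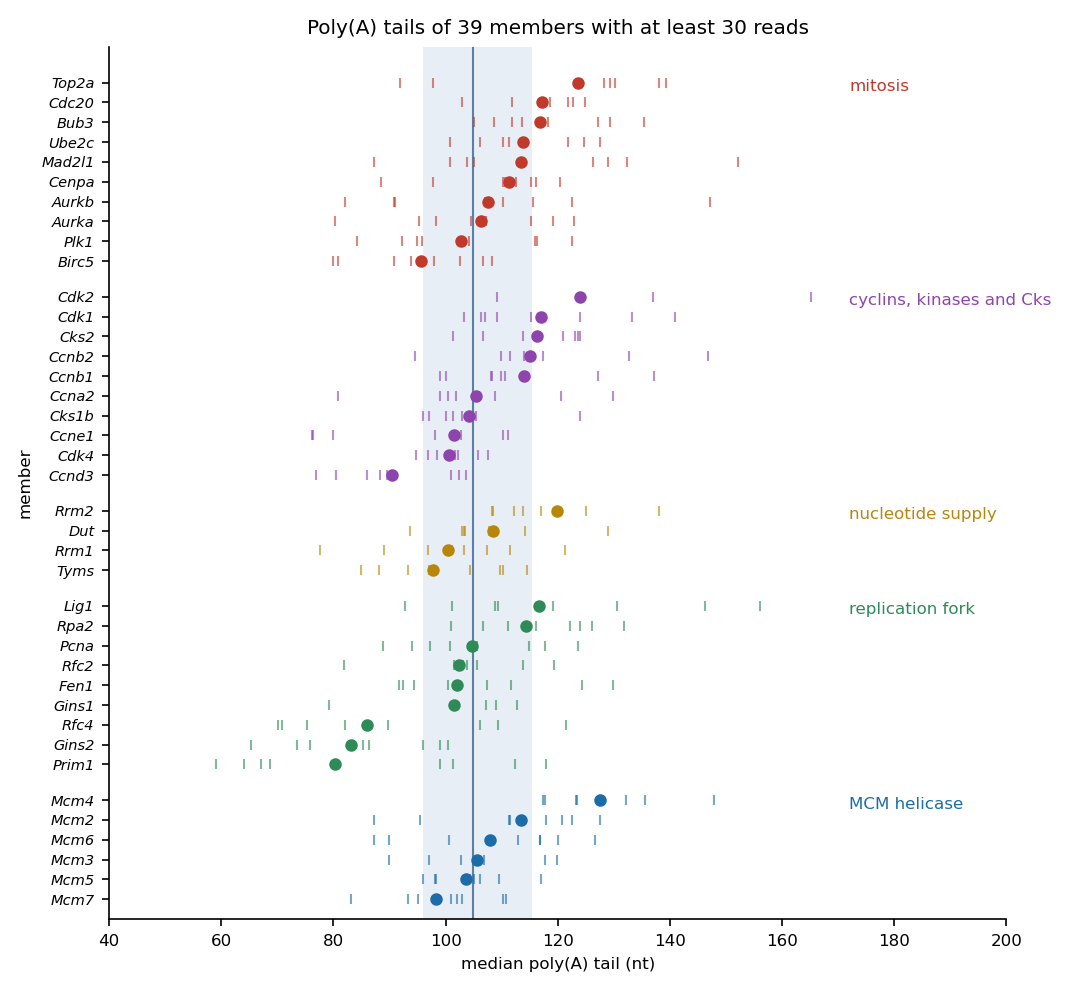
Median tail length in nt of the 39 members with at least 30 reads, by role; dots are medians over all reads and ticks are medians of single libraries with at least 10 reads. The line marks the median gene (104.9 nt) and the band the middle of 5842 genes (96.0 to 115.4 nt); 5 members lie below the band and 9 above it.

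Within a member, molecules that ended further downstream tended to carry longer tails in Ccnb1 and Rrm2. The tail at the outermost downstream site was compared with that at the outermost upstream site in 526 genes with enough reads at both. Of these genes, 99 passed the limma test at an adjusted p under 0.05 (18.8%), 89 of them with longer tails downstream (16.9%), and the median over all 526 was 0.12 on the log2 scale. Of the 7 members among them, 2 passed, and both had longer tails downstream.

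Ccnb1 encodes cyclin B1, which drives entry into mitosis with Cdk1. Its upstream site, 114 nt after the coding sequence, held 111 reads with a median tail of 96.0 nt, of which 10.8% were under 30 nt. The site 942 nt after the coding sequence held 237 reads with a median of 122.4 nt, and the site between them 62 reads with 119.8 nt. In the DMSO libraries at 24 h the median rose from 66.7 to 133 nt and from 119 to 155 nt between the outermost sites, and in the MHY libraries from 118 to 129 nt and from 98.0 to 101 nt. At 48 h it went from 111 to 111 nt and from 108 to 112 nt in DMSO, and from 89.4 to 93.7 nt and from 92.1 to 114 nt in MHY. The downstream site had the longer median in 8 of 8 libraries, with a log2 difference of 0.28 ± 0.09 (SE, limma adjusted p = 0.0197). Without any of the libraries MHY 24 h replicate 21, DMSO 48 h replicate 25 and MHY 48 h replicate 25 the adjusted p was 0.0502 to 0.101, and the difference stayed between 0.24 and 0.33 whichever library was left out.

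Rrm2 encodes the small subunit of ribonucleotide reductase, which makes the deoxynucleotides for DNA synthesis. Its upstream site, 65 nt after the coding sequence, held 41 reads with a median tail of 86.8 nt, and its downstream site, 860 nt after it, held 294 reads with 125.4 nt. The downstream median was the longer in 7 of 8 libraries, MHY 48 h replicate 24 being the exception (138.5 nt upstream, 98.9 nt downstream), with 3 to 9 upstream reads per library. The log2 difference was 0.48 ± 0.13 (SE, limma adjusted p = 0.00911). The adjusted p was 0.0805 without DMSO 24 h replicate 23 and 0.0937 without MHY 48 h replicate 25.

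The other 5 members did not pass. Ccna2, cyclin A2 of S phase and G2, split its reads almost evenly between sites 259 and 1372 nt after the coding sequence (179 and 178 reads). Its tails had medians of 100.1 and 116.9 nt, longer downstream in 6 of 8 libraries (log2 difference 0.16 ± 0.08, adjusted p = 0.168). Prim1 had a difference of 0.41 ± 0.21 (adjusted p = 0.184), while Aurka, Ccnb2 and Cenpa were at 0.11, −0.08 and −0.08. The choice of site itself was not called between treatments for any of the 7 members. In the tests of site use, 0 of 526 genes were called at 24 h and 1 at 48 h (0.19%), and the downstream share ranged over libraries from 41.7% to 55.0% for Ccna2, from 61.1% to 83.8% for Ccnb1 and from 79.5% to 93.9% for Rrm2.

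**Figure D3:**
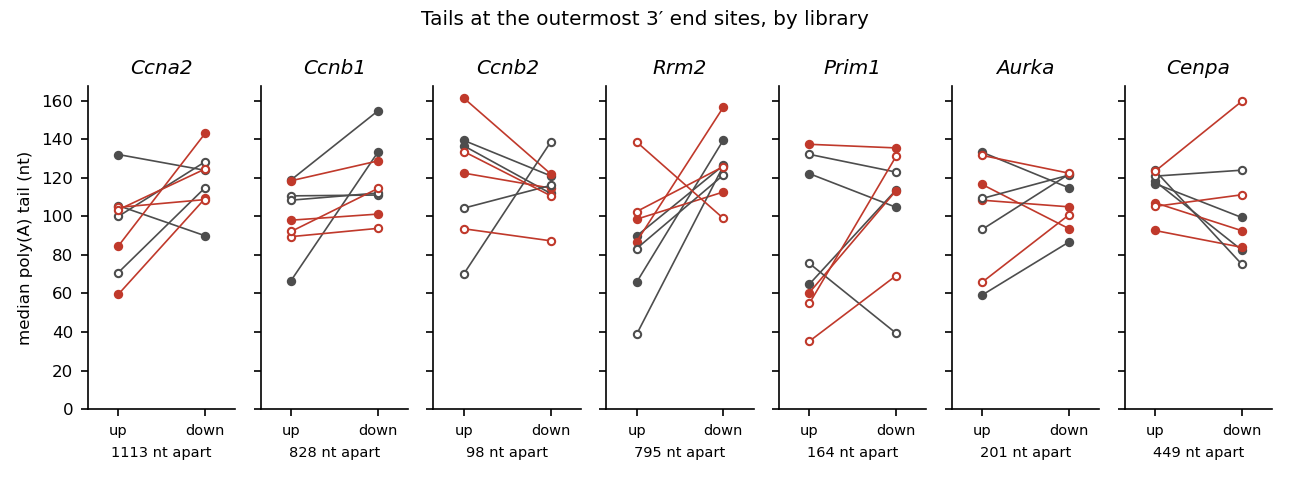
Median tail length in nt of reads that ended at the outermost upstream (up) and downstream (down) site of 7 members, with a line for each library (grey, DMSO; red, MHY; filled, 24 h; open, 48 h). Lines for Ccnb1 rise or stay level in all 8 libraries and those for Rrm2 rise in 7 of 8.

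Turning to the effect of MHY on each mRNA, Dut was the only member called at either time. Dut encodes dUTPase, which removes dUTP so that uracil stays out of DNA. Read counts were normalised by a size factor per library, and a gene was called at an adjusted p under 0.05 in a limma fit over 4116 genes. At 24 h the normalised read count of Dut was 126.8 and 121.0 in DMSO and 77.3 and 101.5 in MHY, and at 48 h 93.4 and 108.7 in DMSO and 57.9 and 67.5 in MHY. MHY was the lower without overlap at each time. The means were 101.1 ± 10.8 and 62.7 ± 6.8 (SD, n = 2) at 48 h, a log2 change of −0.71 ± 0.18 (SE) with an interval of −1.08 to −0.34 over 2 SE and a limma adjusted p of 0.0144. At 24 h, 123.9 ± 4.1 against 89.4 ± 17.1 gave a change of −0.50 ± 0.18, with an adjusted p of 0.955, and was −0.28 without MHY replicate 21 and −0.68 without MHY replicate 23. The change at 48 h minus that at 24 h was −0.22, with an interval of −0.74 to 0.30, so that the effects were not shown to differ.

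The call of Dut at 48 h stood near the threshold. Without DMSO replicate 25 the change was −0.59 (adjusted p = 0.403) and without MHY replicate 24 it was −0.57 (adjusted p = 0.589). Over 18 alternatives the adjusted p ran from 0.00705 to 0.589, and the sign was negative in each. The tails of Dut were not called. Their geometric mean was 96.4 and 102.1 nt in DMSO and 88.4 and 104.6 nt in MHY at 48 h, with overlap and a log2 change of −0.07 within an interval of −0.26 to 0.11.

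Across all genes, 65 of 4116 were called for read count at 48 h (1.58%; 48 of them lower, 1.17%), and 1 of the 39 tested members. At 24 h 3 genes were called (0.0729%) and no member, and with a mean-variance trend in place of precision weights 4 genes and no member. An unadjusted p under 0.05 was reached by 2 of 39 members at 24 h (5.13%, against 4.30% of all genes) and by 4 at 48 h (10.3%, against 12.4%). The median change over members was −0.04 at 24 h, against 0.01 over all genes, and −0.09 at 48 h, against −0.01. At 48 h 28 of 39 members had a lower value in MHY, as 50.8% of all genes did. Scaled by total reads instead, the members' median at 48 h was 0.03 against 0.11 over all genes. Lower values were then found for 16 of 39 members and 38.8% of all genes. By quantile normalization the median was −0.09 against 0.005, with 25 of 39 members and 49.4% of all genes lower. Relative to the median of all genes the members' median was −0.09 under each of the 3 scalings.

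Counting members whose libraries did not overlap, 15 lay below DMSO at 48 h, where 20.8% of all genes did, and 3 above, where 18.8% did. At 24 h 9 lay below and 6 above, with 16.9% of all genes on each side. Mcm2, Mcm3, Rrm2, Dut and Top2a lay below at both times, as 4.37% of all genes did. Rpa2, a subunit of the protein that coats single-stranded DNA, was the only member above at both times, as 3.89% of all genes were.

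**Figure D4:**
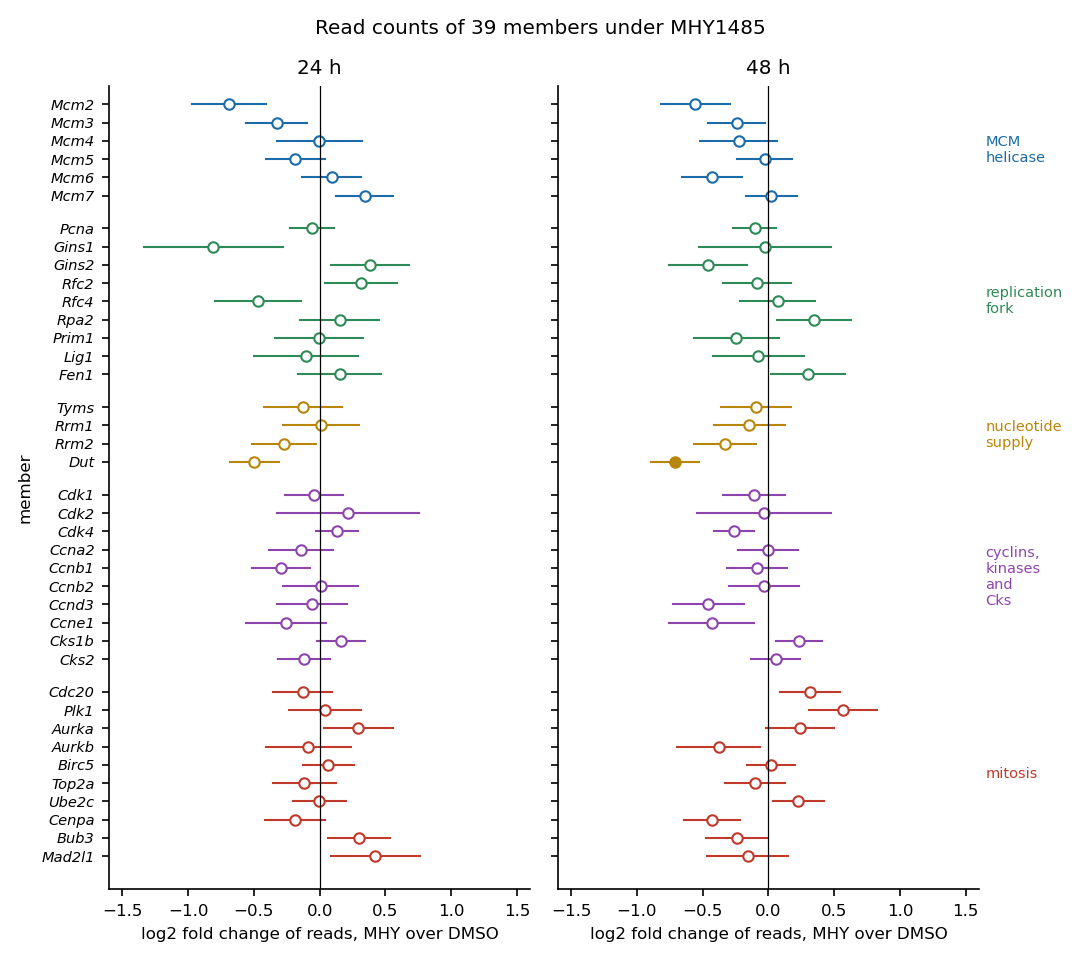
Log2 change in read count, MHY against DMSO, of the 39 members tested at 24 h and 48 h, by role; bars are 1 SE either side and the filled symbol marks an adjusted p under 0.05. The filled symbol is Dut at 48 h, at −0.71.

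In nucleotide supply, all 4 members had lower values at 48 h and 3 of 4 at 24 h, and Dut was the member that passed. The 4 together took 0.0942% and 0.102% of mRNA reads in DMSO at 24 h and 0.0747% and 0.0847% in MHY. At 48 h they took 0.0913% and 0.0834% in DMSO and 0.0680% and 0.0687% in MHY. Dut gave 773 of the 1599 reads of the 4, so that these shares in part repeat its values. Rrm2 changed by −0.27 ± 0.24 and −0.33 ± 0.24 at 24 h and 48 h, Rrm1, the large subunit of the reductase, by 0.01 and −0.15, and Tyms, which makes thymidylate, by −0.13 and −0.09. None of these 3 passed the test.

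No MCM2-7 member passed the test. At 48 h 5 of 6 had lower values in MHY, with a median change of −0.24, and at 24 h 4 of 6 did, with a median of −0.09. The 6 together took 0.122% and 0.128% of mRNA reads in DMSO and 0.121% and 0.114% in MHY at 24 h. At 48 h they took 0.118% and 0.122% in DMSO and 0.115% and 0.111% in MHY. MHY was the lower at both times with no overlap, though at 24 h the nearest libraries were at 0.1220% in DMSO and 0.1213% in MHY. The sum was not tested. Mcm2, a subunit of the helicase, had the most negative change of the 6 at both times. Its count at 24 h was 38.9 and 48.6 in DMSO and 30.9 and 23.0 in MHY, and at 48 h 35.8 and 35.2 in DMSO and 23.2 and 25.3 in MHY. The MHY libraries lay below the DMSO libraries at both times, with changes of −0.69 ± 0.28 (SE, adjusted p = 0.955) and −0.56 ± 0.26 (adjusted p = 0.356). Mcm7, of the same helicase, stood at 52.7 and 57.1 in DMSO and 63.9 and 78.5 in MHY at 24 h (0.34 ± 0.22, adjusted p = 0.955) and changed by 0.02 at 48 h. Its change at 24 h was 0.21 without MHY replicate 23 and 0.51 without MHY replicate 21.

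At the replication fork, 5 of 9 members had lower values at 24 h and 6 of 9 at 48 h, with medians of −0.01 and −0.08 and no call. Pcna changed by −0.06 ± 0.17 and −0.10 ± 0.16. The 9 changes ran from −0.81 to 0.38 at 24 h and from −0.46 to 0.35 at 48 h. Gins1, with the fewest reads of the 9 (79), was the lowest at 24 h and changed by −0.03 at 48 h, with an SE of 0.53 and 0.50.

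For cyclins, kinases and Cks proteins, 10 of 12 genes could be tested and none passed, with medians of −0.05 at 24 h and −0.06 at 48 h. The changes ran from −0.29 to 0.21 and from −0.46 to 0.23. Cdk4, the kinase of G1 that pairs with D cyclins, had the most reads of the set (1434). Its count was 183.5 and 183.7 in DMSO and 147.9 and 159.3 in MHY at 48 h (−0.26 ± 0.15), and 144.3 and 190.9 in DMSO and 177.3 and 190.9 in MHY at 24 h (0.13 ± 0.16). Cks1b and Cks2, small proteins that bind cyclin-dependent kinases, changed by 0.23 ± 0.18 and 0.05 ± 0.19 at 48 h.

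Mitotic members split evenly, with 5 of 10 lower and 5 higher at each time and no call. The 10 together took 0.194% and 0.172% of mRNA reads in DMSO and 0.199% and 0.196% in MHY at 48 h. MHY was the higher there without overlap, while the groups overlapped at 24 h. The log2 ratio of these shares at 48 h was 0.11, like the median change over all genes scaled by total reads (0.11). With size factors the median change of the 10 was −0.04. The changes ran from −0.19 to 0.42 at 24 h and from −0.43 to 0.57 at 48 h. Plk1, a kinase that acts at several steps of mitosis, had counts of 27.1 and 25.5 in DMSO and 33.4 and 48.5 in MHY at 48 h, a change of 0.57 ± 0.26 (SE, adjusted p = 0.327). It was 0.34 without MHY replicate 25 and 0.89 without MHY replicate 24. At 24 h the counts were 41.4 and 28.1 in DMSO and 31.9 and 36.5 in MHY, a change of 0.04. Cenpa, the histone H3 variant of centromeres, changed by −0.43 ± 0.21 at 48 h (adjusted p = 0.380). Birc5, or survivin, a subunit of the chromosomal passenger complex, changed by 0.07 and 0.02.

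**Figure D5:**
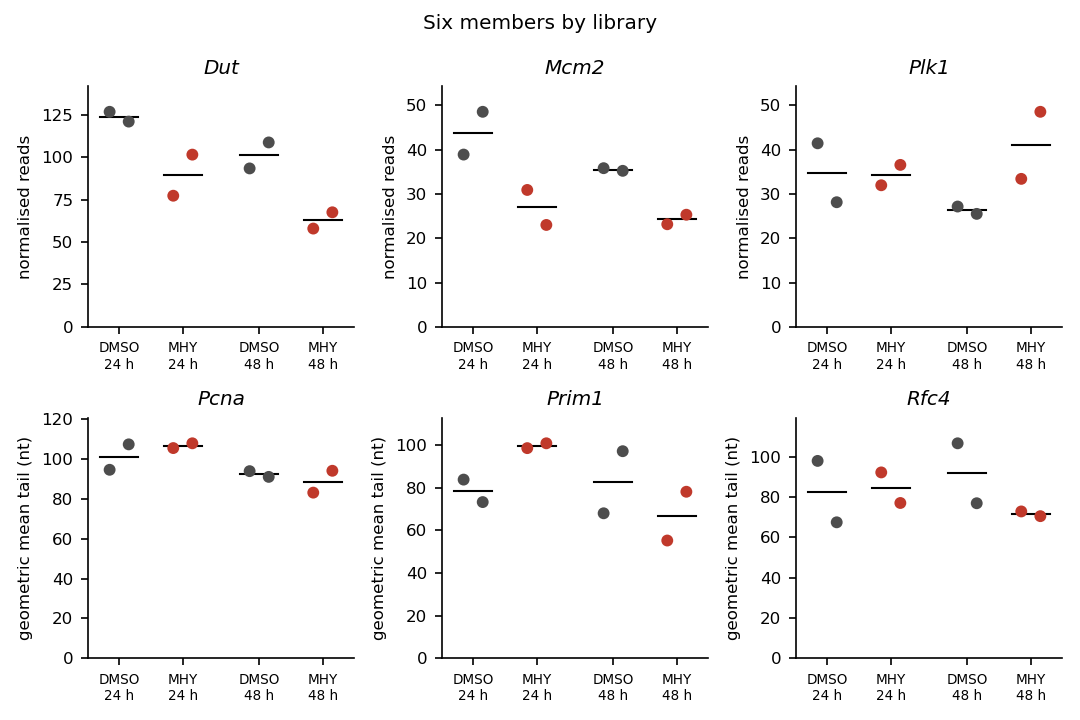
Values in each library for 6 members (grey, DMSO; red, MHY; 2 libraries per group), with group means as bars. The upper panels give the normalised read count of Dut, Mcm2 and Plk1 and the lower panels the geometric mean tail in nt of Pcna, Prim1 and Rfc4; Dut and Mcm2 are lower in MHY without overlap at each time.

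No member's tail length was called between MHY and DMSO. Tails were averaged per gene and library on the log2 scale, which gives a geometric mean in nt, for 1949 genes with at least 10 reads in every library. Of the members 37 passed that filter, Gins1, Cdk2, Ccnd1 and Ccnd2 being the others. At 24 h 0 genes passed (0%), and 58 genes, 2 of them members, had an unadjusted p under 0.05. At 48 h 24 genes were called, all with shorter tails in MHY (1.23%), and 231 genes (11.9%), 2 of them members, had an unadjusted p under 0.05. The members' median change on the log2 scale was −0.04 at 24 h and −0.08 at 48 h, against −0.001 and −0.05 over all genes. At 48 h 7 of 37 members had both MHY libraries below both DMSO libraries, where 27.3% of all genes did, and 1 had them above (9.08%). At 24 h 5 lay below (16.8%) and 4 above (16.1%).

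Prim1 had the largest swing between times. Its geometric mean tail at 24 h was 83.8 and 73.3 nt in DMSO and 98.6 and 100.9 nt in MHY, and at 48 h 68.0 and 97.2 nt in DMSO and 55.3 and 78.2 nt in MHY. MHY lay above DMSO at 24 h and overlapped it at 48 h, on 14 to 31 reads per library. The log2 change was 0.35 ± 0.20 at 24 h and −0.47 ± 0.19 at 48 h (SE, adjusted p = 0.319), and their difference was −0.82 ± 0.28 (adjusted p = 0.807). Without MHY 48 h replicate 25, 2 of the members were called at 48 h, Prim1 (−0.64, adjusted p = 0.0489) and Top2a, and 98 of 1987 genes, against 24 of 1949 with it. The change of Prim1 at 48 h was −0.13 without DMSO replicate 25 and −0.15 without MHY replicate 24. Over 15 alternatives the adjusted p of Prim1 at 48 h ran from 0.0489 to 0.971.

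The other members with the lowest p did not pass either. Cks1b had geometric mean tails of 99.4 and 109.9 nt in DMSO and 93.0 and 89.5 nt in MHY at 24 h (−0.21 ± 0.08), and Ccne1, cyclin E1 of the G1 to S transition, 87.0 and 102.0 nt against 73.5 and 80.4 nt (−0.33 ± 0.16). Both had MHY below DMSO at 24 h without passing the test, with changes from −0.26 to −0.12 and from −0.41 to −0.18 as each library was left out. At 48 h Mcm3 had 95.2 and 109.0 nt in DMSO and 83.0 and 95.7 nt in MHY (−0.24 ± 0.11, adjusted p = 0.376), and the change was −0.11 without MHY replicate 24 and −0.12 without DMSO replicate 25. Rfc4 had 106.6 and 76.9 nt in DMSO and 72.8 and 70.5 nt in MHY (−0.33 ± 0.17, adjusted p = 0.528), and the change was −0.09 without DMSO replicate 24 and −0.11 with barcode confidence of at least 0.9.

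The shares of tails under 30 nt and of 30 to 90 nt were tested for the same 37 members, and none was called at either time. At 48 h, 10 members had both MHY libraries above both DMSO libraries for tails under 30 nt, where 26.1% of all genes did, and 7 genes were called (0.359%). Plk1 had the lowest p, with no such tail in DMSO and 7.34% ± 1.16 (SD, n = 2) in MHY (limma adjusted p = 0.252). Its libraries held 25 and 34 reads in DMSO and 49 and 46 in MHY, so that few reads carry this share. Top2a followed, at 0.91% in DMSO and 7.65% in MHY (adjusted p = 0.300), on 43 and 55 reads in DMSO and 59 and 39 in MHY. Rpa2, Mcm4 and Aurkb lay below instead (7.03% of all genes). At 24 h 3 members lay above (7.8%) and 8 below (14.2%), and no gene passed, 110 having an unadjusted p under 0.05. For tails of 30 to 90 nt, 6 members lay above and 2 below at 24 h (17.9% and 14.1% of all genes), and 5 above and 2 below at 48 h (17.6% and 15.2%). No gene passed at 24 h for this class, 95 having an unadjusted p under 0.05, and 5 genes did at 48 h (0.257%).

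Between times, Pcna was the only member with a called tail difference, and only in MHY. Its geometric mean tail was 105.4 and 107.8 nt in MHY at 24 h and 83.0 and 94.0 nt in MHY at 48 h, with no overlap. The DMSO libraries had 94.5 and 107.2 nt at the earlier time and 93.8 and 90.9 nt at the later, again with both later libraries below both earlier ones. The means in MHY were 106.6 ± 1.7 and 88.5 ± 7.7 nt (SD, n = 2), a log2 change of −0.29 ± 0.08 (SE, limma adjusted p = 0.0467), with 43 of 1949 genes called, all with shorter tails at 48 h (2.21%). In DMSO the change was −0.14 (adjusted p = 0.849), and the changes in MHY and DMSO differed by −0.15 (adjusted p = 0.936), so that they were not shown to differ. Pcna lost its call when any library other than MHY 48 h replicate 25 was left out, and without MHY 48 h replicate 24 the change was −0.18 (adjusted p = 0.707). Over 15 alternatives its adjusted p ran from 0.00126 to 0.707.

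Over the 37 members, the median change in tail length from 24 h to 48 h under MHY was −0.08 against −0.09 over all genes, and under DMSO −0.05 against −0.04. In MHY 12 of 37 members had both 48 h libraries below both 24 h libraries (38.1% of all genes) and 3 above (5.39%). In DMSO 9 were below (25.7%) and 0 above (9.49%). No gene was called in DMSO, with 109 at an unadjusted p under 0.05, nor for the difference between the MHY effects at the 2 times, with 106.

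Read counts of the set were lower at 48 h than at 24 h for most members, without a call. In DMSO 29 of 39 had lower values at 48 h, with a median change of −0.18 and 11 members without overlap below (15.8% of all genes) and 1, Mcm7, above (16% of all genes). In MHY 34 of 39 had lower values (51.7% of all genes), with a median also of −0.18. There 16 members lay below without overlap (19.8%) and 1, Rfc4, above (19.3%). Scaled by total reads, 29 had lower values in DMSO and 25 in MHY, where 47.8% and 39.6% of all genes did. The medians were −0.16 and −0.06 against 0.02 and 0.11 over all genes. In DMSO no gene of 4116 passed, 175 having an unadjusted p under 0.05, and the lowest p among members was that of Cdc20, the activator of the anaphase-promoting complex (−0.69, adjusted p = 0.717). In MHY 45 genes were called (1.09%; 39 of them lower, 0.948%), and the lowest p among members was that of Mcm6 (−0.66, adjusted p = 0.183). For the difference between the MHY effects, 14 genes were called (0.34%; 2 higher, 0.0486%, and 12 lower, 0.292%) and no member.

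Other genes of the cell cycle gave no call either. Of 116 further genes in 4 lists, 114 had a read and 82 could be tested for read count: 36 of 46 of origin licensing and DNA synthesis, 40 of 49 of mitosis, 5 of 14 of the G1 to S transition and 1 of 7 CDK inhibitors. None was called by limma in any contrast. Positive changes were found for 35 of the 82 between MHY and DMSO at 24 h and for 41 at 48 h, and for 49 in DMSO and 42 in MHY between the times. Between MHY and DMSO, 4 had an unadjusted p under 0.05 at 24 h and 7 at 48 h, as 177 (4.30%) and 511 (12.4%) of all 4116 genes did, and the lowest adjusted p was 0.119, in the first list at 48 h. Tail length could be tested for 36 of them, and none was called, with 1 and 6 at an unadjusted p under 0.05, as 2.98% and 11.9% of all genes were.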

How the data were processed

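The authors basecalled with Guppy, assigned barcodes with Deeplexicon, aligned with minimap2 2.20 to GENCODE vM17 transcripts (mm10) and estimated tails with Nanopolish. The deposited table held 2439710 alignments, each with a tail length in nt, a mapping quality (a minimap2 score) and a barcode confidence (a fraction from 0 to 1). It held no counts, so reads tagged PASS of class mRNA were counted once per transcript and summed per gene (Python 3.11.15, pandas 2.3.3). The 2 libraries of a group were kept apart and matched to groups through the names in the table and the labels, which do not say which library is which numbered replicate.

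Read counts of genes with at least 10 reads in 2 libraries were scaled by median-of-ratios size factors and fitted with limma 3.58.1 (R 4.3.3, voom weights). Mean log2(tail + 1 nt) and the log odds of the class shares (0.5 read added to each side) of genes with at least 10 reads in every library were fitted with weights for read number. All 8 libraries shared 1 model with a term per group. Contrasts were adjusted by Benjamini-Hochberg over all genes tested, with a threshold of 0.05. The p-values measure only the spread between these 2 libraries per group. Wilson 95% intervals cover counting error only. Read ends were placed with GENCODE vM21 exons, and the analysis by end site was added after the data had been seen. Scripts were tested on simulated data.

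Members named in the text are first those called in any contrast. Next are the 3 with the lowest p for read count and for tail length in each comparison of MHY with DMSO. The 6 with the most reads and the 3 with the shortest and the longest tails were named too. Others were chosen after their values were seen. They were named for end sites, role, mapping quality, read number, a count of 5 or fewer, or a low p between times or for a tail class. The members and gene lists were chosen with earlier results of these data known. 1 neuronal marker is not reported here.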

Additional observations from a re-analysis of the deposited data

How the results depend on the processing

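Some of the alternatives (the leaving out of libraries for end sites among them) were chosen after seeing the data. Across them all, none of 15 changes of named members, those chosen by rule or called, reversed its sign. These 15 were picked by p from the same libraries, which favours a kept sign. Of the other changes between treatments or times printed, those of Rrm1, Tyms and Birc5 at both times, Cdk4 and Plk1 at 24 h and Mcm7, Pcna, Gins1 and Cks2 at 48 h in read count, and of Dut at 48 h in tail length, took the other sign under 1 to 4 alternatives, and none gained a call. At 48 h the count of members called for read count fell from 1 to 0 with a limma trend in place of voom weights (Dut −0.68, adjusted p = 0.0600), with mapping quality of at least 10 (−0.65, 0.0641) and with scaling by total reads (−0.59, 0.0606), and ran from 0 to 1 as each library was left out. The number of genes called at 48 h was 31 with a limma trend and 30 of 3780 when that time point was fitted alone, against 65. For tail length, 0 to 2 members were called at 48 h as each library was left out, the 2 being without MHY 48 h replicate 25, where 98 of 1987 genes were called. Between times under MHY, 0 members were called with mean tails in nt (Pcna −19.6 nt, adjusted p = 0.0809) or without weights (−0.27, 0.503), where 0 genes were called, and 0 to 2 as each library was left out, the 2 again without MHY 48 h replicate 25, where 121 of 1987 genes were called. By end site, 0 members were called without weights (Ccnb1 0.30, adjusted p = 0.0750; Rrm2 0.52, 0.0841), where 38 of 526 genes were called, and 0 to 2 as each library was left out, with 57 to 88 genes called. The cause was not tested.

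For the set, the log2 ratio of shares at 24 h was −0.083 in run 2 alone, against −0.04. The difference in tails under 30 nt at 24 h, −0.60 percentage points, was −1.26 with barcode confidence of at least 0.9, 0.120 with the bound at 20 nt and −2.08 as a median over members. At 48 h it was 0.347 with the bound at 20 nt, against 1.62. The difference in tails of 30 to 90 nt at 24 h was 4.93 in run 3 alone, against 2.25.

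With the replicate number as a block, Dut at 48 h was −0.68 (adjusted p = 0.0160), 77 genes were called against 65, and no member's call changed. The deviations of same-numbered libraries from their group means were correlated over genes, with 2 pairs a time. The correlations were 0.019 (24 h) and 0.139 (48 h) for read counts and 0.037 and 0.031 for tail length. Counting error in single libraries lowers such correlations, so that they cannot decide whether same-numbered libraries were paired. Contrasts between times cannot hold the block.

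The SE of the change in read count at 48 h was largest for the members tested with the fewest reads, Cdk2 (68 reads, 0.51) and Gins1 (79 reads, 0.50).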
